A study of Mus musculus with 2 samples.

Results

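The integrated stress response gene set described here holds Atf3, Atf4, Atf5, Ddit3, Ddit4, Chac1, Trib3, Sesn2, Asns and Nupr1, which are 10 of the 31053 gene names in the data. The 10 genes were listed by name, and the list was drawn up with results of these same libraries known, so that the values below are a description and none of them was tested. The data are 2 scRNA-seq libraries from optic nerves of wildtype mice of the 129S1/SvlmJ strain, with male and female animals pooled. The uninjured library came from 5 nerves that were not crushed, and the injured library came from the lesion of 5 nerves at 2 weeks after optic nerve crush (ONC), in mice of 10 weeks that were crushed at 8 weeks. Both samples carry the label of 2 weeks after crush and an age of 56 days, so the uninjured library was identified by its title. Nerves were pooled before capture, so each condition has 1 library, no value has a replicate check, and every interval covers counting error in these libraries only. The libraries hold the oligodendrocyte lineage as typed by the authors, which is oligodendrocyte precursor cells (OPCs), newly formed oligodendrocytes (NFOs) and oligodendrocytes.

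In the integrated stress response, kinases that sense misfolded protein, amino acid shortage, heme shortage or viral RNA phosphorylate the initiation factor eIF2. General translation then falls while a few mRNAs with upstream reading frames, among them those of ATF4, ATF5 and CHOP (the product of Ddit3), are translated more. ATF4 switches on genes of amino acid supply, feedback and cell death, and in oligodendrocytes, which make large amounts of myelin membrane and protein, this response is known from demyelinating disease and its models. ATF3 is a target of the same pathway, but it is also an immediate early gene and a classic injury gene of neurons and glia, so it can be made without the rest of the response.

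The composite site that ATF4 shares with C/EBP proteins, TGATGNAA, is the sequence feature that links this gene set in textbooks. It was looked for on both strands of the 250 bases before the RefSeq gene start in GRCm38.p6, where it occurs in 3.45% of 32851 promoters of that length. Of the 10 genes, 4 hold it, namely Asns, Atf3, Chac1 and Nupr1. The 4 windows are printed 5′ to 3′ on the strand of the gene, because they show which members carry the site close to the start, with the match in capitals (TTGCATCA is the site read on the other strand). They are chr6:7693210-7693459 (minus strand) for Asns, chr1:191183334-191183583 (minus strand) for Atf3, chr2:119350992-119351241 (plus strand) for Chac1 and chr7:126625471-126625720 (minus strand) for Nupr1.

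Asns: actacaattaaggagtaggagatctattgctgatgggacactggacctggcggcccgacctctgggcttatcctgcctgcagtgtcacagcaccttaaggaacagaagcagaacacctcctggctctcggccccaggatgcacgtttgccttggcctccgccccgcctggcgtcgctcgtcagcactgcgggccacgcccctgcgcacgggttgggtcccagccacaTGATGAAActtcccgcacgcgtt
Atf3: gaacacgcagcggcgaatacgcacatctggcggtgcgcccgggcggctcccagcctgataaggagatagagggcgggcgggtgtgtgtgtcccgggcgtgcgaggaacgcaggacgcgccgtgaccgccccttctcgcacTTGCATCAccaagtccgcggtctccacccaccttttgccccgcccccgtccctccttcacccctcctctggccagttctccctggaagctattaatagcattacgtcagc
Chac1: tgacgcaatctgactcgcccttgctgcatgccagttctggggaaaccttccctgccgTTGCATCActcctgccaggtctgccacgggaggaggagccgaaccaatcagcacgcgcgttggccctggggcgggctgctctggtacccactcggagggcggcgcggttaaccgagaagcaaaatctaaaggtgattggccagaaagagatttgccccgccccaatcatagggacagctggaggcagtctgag
Nupr1: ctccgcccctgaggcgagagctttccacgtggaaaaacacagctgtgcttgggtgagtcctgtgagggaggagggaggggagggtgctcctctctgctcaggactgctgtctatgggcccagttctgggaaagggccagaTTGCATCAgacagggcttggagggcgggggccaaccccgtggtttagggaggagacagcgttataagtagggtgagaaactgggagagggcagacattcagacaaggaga

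The match begins 23 bases before the start in Asns, 110 bases before it in both Atf3 and Nupr1, and 193 bases before it in Chac1. The cyclic AMP response element TGACGTCA (1.55% of promoters) and its looser form TGACGNCA (2.75% of promoters) were in none of the 11 windows searched for the 10 genes. RefSeq gave 1 start for each gene and 2 for Atf5, and sites further away or inside the genes were not searched. The 4 genes with a match did not share 1 pattern in the injury comparison given below, since Atf3 was higher in the injured library, Nupr1 was so only with 1 barcode that held 41 of its 54 injured UMIs, Asns was not, and Chac1 was close to absent from both libraries. A match is a description of letters and says nothing of which factor was bound.

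There were 959 uninjured barcodes with 4414834 UMIs and 410 injured barcodes with 2771797 UMIs, and no barcode sequence occurred in both libraries. OPCs and oligodendrocytes held the markers of their names, and NFOs a mixture. Summed OPC markers (8 genes) were at 10804 and 9677 UMIs per 1000000 UMIs (CPM) in uninjured and injured OPCs, against 57.8 and 55.6 CPM in oligodendrocytes, whose own 10 markers summed to 70072 and 59730 CPM. NFOs had the most NFO markers of the 3 types (8 genes; 4940 and 7699 CPM) but also held OPC markers at 5004 and 3530 CPM and oligodendrocyte markers at 10347 and 16936 CPM. Injured oligodendrocyte barcodes were shallower at the median (1268 against 3060 UMIs), although 79 of 293 of them held 10000 UMIs or more (135 of 857 uninjured). Barcodes with under 0.5% of their UMIs from the nuclear RNA Malat1 made up 133 of 293 injured and 48 of 857 uninjured oligodendrocytes. Macrophage and microglia markers (12 genes) summed to 337 CPM in injured oligodendrocytes, with all 12 found, and to 26.5 CPM in uninjured ones, with Spp1 at 0 and the other 11 found. A UMI of 1 of 6 such markers (Lyz2, C1qa, C1qb, C1qc, Tyrobp and Fcer1g) was in 69.3% of injured and 4.08% of uninjured oligodendrocyte barcodes. A UMI of any of the 12 was in 84.6% and 8.28% of them. In NFOs the 12 markers summed to 813 CPM injured and 21.2 CPM uninjured. A UMI of the 6 was in 67 of 100 and 0 of 44 NFO barcodes, and a UMI of any of the 12 in 84% and 4.55%. Barcodes called without a macrophage marker UMI below are those without a UMI of the 6, so some of them hold a UMI of the other markers. The part of these RNAs in the results was not tested beyond the values given with each gene.

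In oligodendrocytes, 7 of the 10 genes had at least 50 UMIs over both libraries, the minimum used here for a ratio to be counted. Of these 7, Atf3, Atf5, Ddit3 and Nupr1 had a CPM at least 2-fold higher in the injured library, none was 2-fold lower, and Atf4, Asns and Ddit4 lay between. Across all 8591 genes with as many UMIs, 5.98% were at least 2-fold higher and 4.06% at least 2-fold lower. The members were listed with these ratios known, so nothing is read from the difference between those shares. The remaining 3 genes, Chac1, Trib3 and Sesn2, had between 4 and 15 UMIs. In NFOs only Atf4 reached 50 UMIs, and it lay between the limits, where 13.3% of 1695 genes were at least 2-fold higher and 4.01% at least 2-fold lower. The median ratio over all genes was 1.03 in oligodendrocytes and 1.15 in NFOs (0.05 and 0.20 on the log2 scale).

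**Figure D1:**
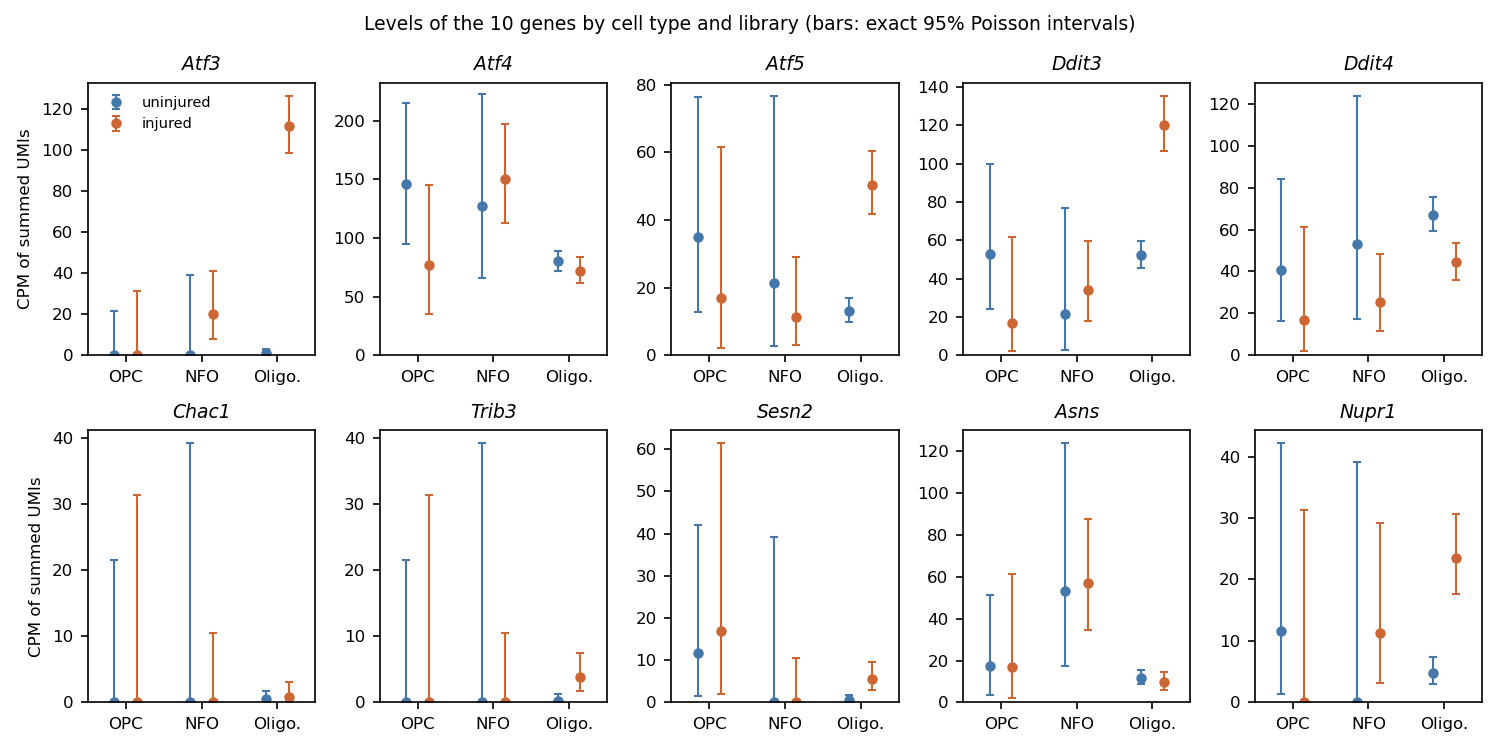
Level of each of the 10 genes (CPM of summed UMIs, linear axis from 0, a scale of its own in each panel) in OPCs, NFOs and oligodendrocytes (Oligo.) of the uninjured and injured libraries, with exact 95% Poisson intervals. Atf3 stands at 112 CPM in injured oligodendrocytes and at 1.21 CPM in uninjured ones, while the intervals of Atf4 and Asns overlap between the libraries in all 3 types.

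Atf3, a transcription factor of the ATF and CREB family, lies on the minus strand of chromosome 1 (chr1:191170296-191218039, GRCm38) and overlaps the gene model Gm24748 on the other strand. It had 5 UMIs in uninjured oligodendrocytes, 1 in each of 5 of 857 barcodes (0.583%), or 1.21 CPM (0.391 to 2.81). In injured oligodendrocytes it had 258 UMIs in 33 of 293 barcodes (11.3%), or 112 CPM (98.8 to 127). It was absent from all 58 uninjured and all 17 injured OPC barcodes, which allows up to 17.5 and 25.5 CPM at a limit of 3 UMIs. In NFOs it had 0 UMIs in 44 uninjured barcodes, which allows up to 31.9 CPM, and 7 UMIs in 6 of 100 injured barcodes (19.9 CPM, 8.00 to 41.0). A difference between the libraries in NFOs was thus not detectable at this depth. The ratio in oligodendrocytes was 93.0 (39.3 to 289), the sixth highest of 8591 genes (rank 6).

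A small number of barcodes held most of the Atf3 UMIs. The leading 4 injured oligodendrocyte barcodes had 117, 44, 17 and 15 UMIs, together 193 of the 258, and 15 of the 33 barcodes had a single UMI. Without the 5 barcodes with most Atf3 UMIs the ratio was 21.7 (8.76 to 69.4), and in barcodes under 8000 UMIs it was 24.6 (6.77 to 135). In barcodes without a UMI of the 6 macrophage markers it was 163 (53.5 to 812), from 66 injured and 3 uninjured UMIs. Of those 66 injured UMIs, 44 were in 1 barcode. Without barcodes poor in Malat1 the ratio was 119 (45.8 to 439). Macrophage markers were lower in injured oligodendrocyte barcodes with Atf3 (132 CPM, 106 to 163) than in those without it (419 CPM, 388 to 452), the median depths being 19284 and 1060.5 UMIs. For Cebpb, a gene of the same pathway, the same split gave 121 CPM of macrophage markers (103 to 140) with it and 706 CPM (651 to 765) without it. The median depths there were 22473 and 877 UMIs, so both splits also part deep from shallow barcodes. The 5 leading Atf3 barcodes held 1, 0, 7, 4 and 8 UMIs of the 12 macrophage markers beside 163, 81, 148, 54 and 139 UMIs of Mag, a myelin adhesion gene of mature oligodendrocytes. The part of depth in these differences was not tested.

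Atf3 was above its uninjured level at every barcode depth. Injured oligodendrocyte barcodes had 65.7 CPM (24.1 to 143) under 1000 UMIs, 32.4 CPM (8.83 to 82.9) from 1000 to under 4000 UMIs, 29.97 CPM (8.17 to 76.7) from 4000 to under 10000 UMIs and 125 CPM (110 to 142) at 10000 UMIs or more. The uninjured values in the same order were 0, 1.18, 2.19 and 0.549 CPM, with an upper limit of 33.6 CPM in the shallowest barcodes. Thinned to 4000 UMIs each, 12 of 101 injured barcodes (11.9%, 6.29 to 19.8) and 3 of 336 uninjured barcodes (0.893%, 0.185 to 2.59) had an Atf3 UMI. At 500 UMIs each the shares were 3.07% (1.41 to 5.75) and 0.239% (0.0289 to 0.859). Thinning left out 192 injured and 521 uninjured barcodes at 4000 UMIs and 0 and 19 at 500 UMIs. Within the injured library, barcodes poor in Malat1 had 39.0 CPM (12.7 to 91.1) and the others 116 CPM (102 to 132). In the barcodes poor in Malat1 the ratio of injured to uninjured was 2.74 (0.306 to 129), from 5 and 1 UMIs.

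**Figure D2:**
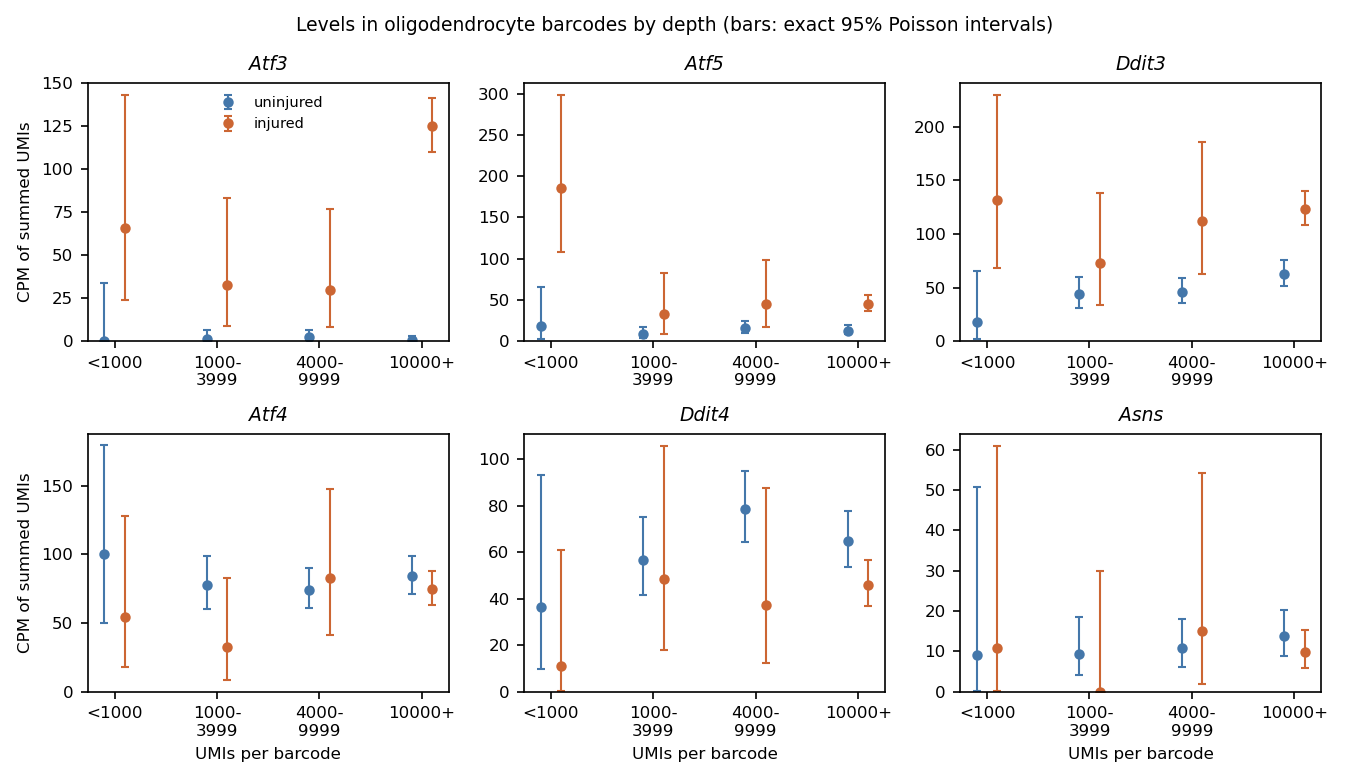
Level (CPM of summed UMIs, linear axis from 0, a scale of its own in each panel) of 6 of the genes in oligodendrocyte barcodes grouped by their UMIs, with exact 95% Poisson intervals. Injured points of Atf3 lie above the uninjured ones in all 4 depth groups, Atf5 is highest in injured barcodes under 1000 UMIs (186 CPM), and the intervals of Atf4 and Asns overlap in all 4 groups.

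Atf4, the transcription factor at the centre of the response, is held mainly at the level of translation, so its mRNA is no measure of its protein. The gene lies at chr15:80255184-80257541 (plus strand). In oligodendrocytes it had 332 UMIs in 234 of 857 uninjured barcodes (80.0 CPM, 71.6 to 89.1) and 166 UMIs in 75 of 293 injured barcodes (72.1 CPM, 61.5 to 83.9). The ratio was 0.901 (0.743 to 1.09), and it stayed between 0.716 and 0.942 over 9 alternatives of weighting, scaling and barcodes. In smaller groups of barcodes it spread further, from 0.274 (0.0603 to 1.02; 4 injured UMIs) in those poor in Malat1 to 1.11 (0.537 to 2.07) from 4000 to under 10000 UMIs, each interval spanning 1. In NFOs Atf4 was at 127 CPM (65.9 to 223; 12 UMIs) uninjured and 151 CPM (113 to 197; 53 UMIs) injured, a ratio of 1.18 (0.623 to 2.43). In OPCs it was at 146 CPM (94.4 to 215) and 76.5 CPM (35.0 to 145), from 25 and 9 UMIs. Oligodendrocytes had the lowest Atf4 level of the 3 types in the uninjured library, where OPCs stood 1.82-fold (1.16 to 2.74) above them and the interval for NFOs spanned 1 (1.59-fold, 0.815 to 2.82). In the injured library NFOs stood 2.09-fold (1.504 to 2.86) above oligodendrocytes, and OPCs differed from neither beyond counting error.

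Ddit3 encodes CHOP, a C/EBP family factor known for its part in cell death under lasting stress, and lies on the plus strand at chr10:127290774-127296288. It had 216 UMIs in 149 of 857 uninjured oligodendrocyte barcodes (52.1 CPM, 45.3 to 59.5) and 277 UMIs in 95 of 293 injured ones (120 CPM, 107 to 135). The ratio was 2.31 (1.93 to 2.77), rank 346 of 8591 genes. Unlike Atf3, it was spread over many barcodes, with 47 of its 277 injured UMIs in the leading 4 and 54 barcodes holding more than 1 UMI. Thinned to 4000 UMIs, 35.6% (26.4 to 45.8) of injured and 19.0% (15.0 to 23.7) of uninjured oligodendrocyte barcodes had Ddit3. At 10000 UMIs the shares were 62.0% (50.4 to 72.7) and 48.1% (39.5 to 56.9), and these intervals overlap. At 4000 UMIs it was in 0 of 9 injured and 3 of 15 uninjured OPC barcodes.

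The Ddit3 ratio ranged from 1.78 to 2.88 over 9 alternatives, and from 1.67 (0.708 to 3.52) to 7.21 (1.60 to 66.3) over the depth groups. In barcodes of 10000 UMIs or more, which held 241 of the 277 injured UMIs, it was 1.97 (1.57 to 2.48), short of 2-fold. The lowest of the 9 alternatives came from barcodes without a macrophage marker UMI (1.78, 1.28 to 2.43, at 95.3 against 53.6 CPM). Without the 5 barcodes with most Ddit3 the ratio was 1.99 (1.64 to 2.41), and both fell short of 2-fold. Barcodes poor in Malat1 had 109 CPM (59.7 to 183) injured and 99.8 CPM (40.1 to 206) uninjured, so that the libraries did not part there, while the other barcodes had 121 CPM (107 to 137) and 51.2 CPM (44.5 to 58.7). In NFOs Ddit3 had 12 injured UMIs (34.1 CPM, 17.6 to 59.6) and 2 uninjured UMIs (21.2 CPM, 2.57 to 76.8), and in OPCs 2 (17.0 CPM) and 9 (52.5 CPM). Within the injured library the NFO level was 0.283 (0.145 to 0.503) of that in oligodendrocytes. Ddit3 has a second gene model in its own first part and overlaps Mars and Gm4189 on the other strand, and whether counting used the strand is not given in the sources used here. Mars itself was at 25.2 CPM injured and 22.2 CPM uninjured, a ratio of 1.136 (0.803 to 1.60).

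Atf5, a factor close to Atf4 whose translation is controlled in the same way, lies at chr7:44812256-44816658 (minus strand) and overlaps Il4i1 and Nup62 on the other strand. It had 54 UMIs in 45 of 857 uninjured oligodendrocyte barcodes (13.01 CPM, 9.78 to 17.0) and 116 UMIs in 61 of 293 injured ones (50.4 CPM, 41.6 to 60.4). The ratio was 3.87 (2.78 to 5.45), rank 134 of 8591 genes. Injured barcodes under 1000 UMIs had the highest level, 186 CPM (108 to 298) from 17 UMIs in 16 of 133 barcodes, against 18.2 CPM (2.21 to 65.9) in uninjured ones. At 10000 UMIs or more the values were 45.5 CPM (36.6 to 56.05) and 12.6 CPM (8.01 to 19.0). The ratio was thus above 2 in deep and in shallow barcodes, with 10.2 (2.42 to 91.1) in the shallowest. Over the 9 alternatives it ranged from 2.70 to 9.38, the highest when each barcode counted equally.

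Atf5 was also the member with a higher level in injured barcodes poor in Malat1 (117 CPM, 65.5 to 193) than in the others (46.5 CPM, 37.8 to 56.4), a ratio of 2.52 (1.36 to 4.36). For Atf3, Ddit4 and Atf4 the same ratio was 0.335 (0.108 to 0.793), 0.168 (0.00421 to 0.957) and 0.419 (0.113 to 1.09). In NFOs, most of whose barcodes were also poor in Malat1 (77 of 100 injured and 28 of 44 uninjured), Atf5 had 4 injured and 2 uninjured UMIs (11.4 and 21.2 CPM). Injured NFOs were at 0.226 (0.0605 to 0.593) of the injured oligodendrocyte level. In OPCs Atf5 had 2 injured and 6 uninjured UMIs.

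**Figure D3:**
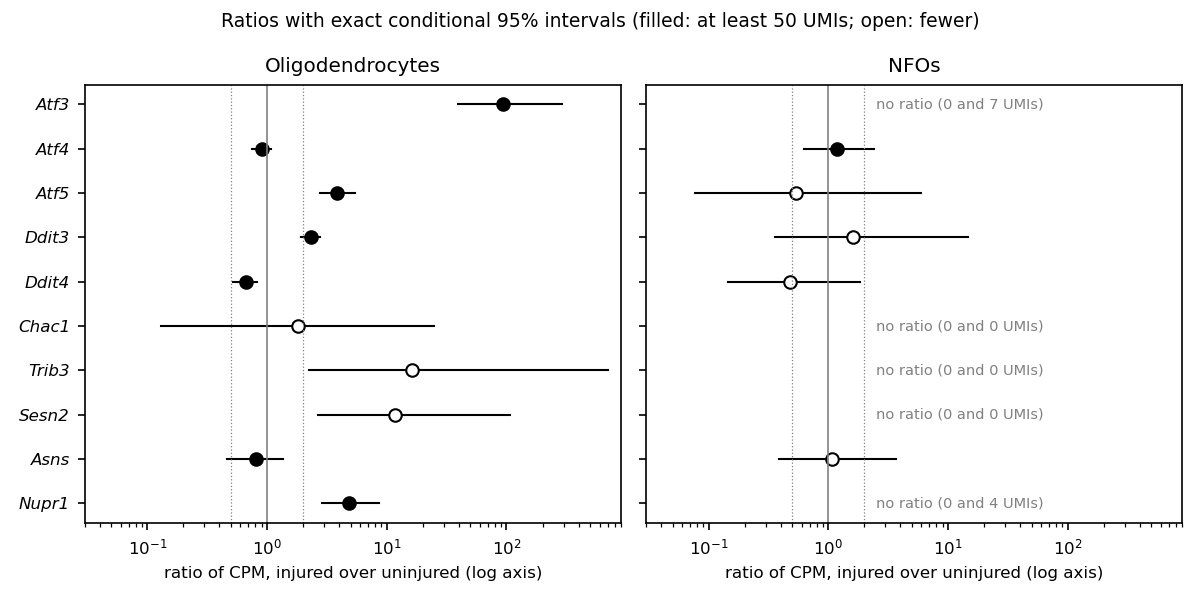
Ratio of CPM, injured over uninjured (log axis), of the 10 genes in oligodendrocytes and NFOs, with exact conditional 95% intervals, filled points for genes with at least 50 UMIs and dotted lines at 2-fold. In oligodendrocytes the filled points of Atf3 (93.0), Nupr1 (4.87), Atf5 (3.87) and Ddit3 (2.31) lie above the upper dotted line. The open points of Trib3 (16.2) and Sesn2 (11.7), from few UMIs, lie above it too. In NFOs the interval of every drawn gene spans 1.

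Nupr1, which encodes a small chromatin protein made under stress, lies at chr7:126623249-126630861 (minus strand). It had 20 UMIs in 16 of 857 uninjured oligodendrocyte barcodes (4.82 CPM, 2.94 to 7.44) and 54 UMIs in 10 of 293 injured ones (23.5 CPM, 17.6 to 30.6), a ratio of 4.87 (2.87 to 8.58). Of the 54 injured UMIs, 41 were in 1 barcode. Without that barcode the ratio was 1.20 (0.549 to 2.54), and without the 5 barcodes with most Nupr1 it turned to 0.877 (0.303 to 2.29). In barcodes free of the 6 macrophage markers it was 0.437 (0.0104 to 2.79), from 1 injured and 17 uninjured UMIs. The ratio for Nupr1 therefore rests on 1 barcode. NFOs had 4 injured and 0 uninjured UMIs, and OPCs 0 and 2.

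Trib3, a pseudokinase that ATF4 and CHOP induce and that feeds back on them, had 1 uninjured UMI and 9 injured UMIs in oligodendrocytes, of which 8 were in 2 barcodes. Its ratio, 16.2, had an interval from 2.25 to 711. Sesn2, an inhibitor of mTORC1 signalling, had 2 uninjured UMIs and 13 injured UMIs, the latter in 11 of 293 barcodes with at most 3 each. Its levels were 0.482 CPM (0.0584 to 1.74) and 5.65 CPM (3.01 to 9.66), a ratio of 11.7 (2.65 to 107), and the lowest ratio over 8 alternatives was 5.51 (0.985 to 55.8). Of the 13 injured UMIs, 12 were in barcodes of 4000 UMIs or more, and below that depth there were 1 injured and 2 uninjured UMIs. In barcodes thinned to 4000 UMIs, Sesn2 was in 7 of 101 injured (6.93%, 2.83 to 13.8) and 0 of 336 uninjured oligodendrocyte barcodes, which allows up to 0.893% at a limit of 3 barcodes (exact upper limit 1.09%), and in 2 of 15 uninjured OPC barcodes. At 10000 UMIs it was in 1 of 79 injured (1.27%, 0.0320 to 6.85) and 0 of 135 uninjured oligodendrocyte barcodes (exact upper limit 2.70%). Those intervals overlap, as do those at 500 UMIs (0.341% and 0.119%), so of the thinned shares only those at 4000 UMIs parted. Without thinning, the shares of all oligodendrocyte barcodes were 3.75% (1.89 to 6.62) injured and 0.233% (0.0283 to 0.840) uninjured, which do not overlap. The setting of 10000 UMIs also leaves out the barcodes from 4000 to under 10000 UMIs, which held 5 of the 13 injured UMIs. Chac1, which degrades glutathione, had 2 UMIs in each library, so no difference was detectable. None of these 3 genes had a UMI in NFOs, where 3 UMIs would be 8.53 CPM injured and 31.9 CPM uninjured, and Sesn2 alone was found in OPCs, with 2 UMIs in each library. Sesn2 overlaps the gene model Gm12981 on the same strand.

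Ddit4 (chr10:59949669-59951834, minus strand), which encodes REDD1, another inhibitor of mTORC1 that is also induced by hypoxia and glucocorticoids, was the member with the lowest ratio in oligodendrocytes. It had 278 UMIs in 181 of 857 uninjured barcodes (67.0 CPM, 59.4 to 75.4) and 102 UMIs in 59 of 293 injured ones (44.3 CPM, 36.1 to 53.8), a ratio of 0.661 (0.522 to 0.833). That ratio was between 0.506 and 0.699 over the 9 alternatives of weighting, scaling and barcodes. In the separate depth groups it lay between 0.3002 and 0.857, and in barcodes poor in Malat1 it was 0.0782 (0.00173 to 0.609) from 1 injured and 7 uninjured UMIs. Thinned to 4000 UMIs, Ddit4 was in 18.8% (11.7 to 27.8) of injured and 25.3% (20.7 to 30.3) of uninjured barcodes, and these intervals overlap. NFOs had 9 injured and 5 uninjured UMIs (25.6 and 53.1 CPM), a ratio of 0.482 with an interval that spans 1 (0.145 to 1.83). In OPCs the counts were 2 and 7 (17.0 and 40.9 CPM).

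Asns, the asparagine synthetase gene and a classic ATF4 target, lies at chr6:7675169-7693254 (minus strand). It had 49 UMIs in 45 of 857 uninjured oligodendrocyte barcodes (11.8 CPM, 8.74 to 15.6) and 22 UMIs in 18 of 293 injured ones (9.56 CPM, 5.99 to 14.5), a ratio of 0.809 (0.466 to 1.36) that ranged over 9 alternatives from 0.323 (barcodes without a macrophage marker UMI) to 1.003. The type and not the library parted its levels. NFOs were at 53.1 CPM (17.2 to 124; 5 UMIs) uninjured and 56.8 CPM (34.7 to 87.8; 20 UMIs) injured, which is 4.50-fold (1.40 to 11.2) and 5.95-fold (3.08 to 11.4) the oligodendrocyte level of the same library. OPCs, at 17.5 CPM (3 UMIs) and 17.0 CPM (2 UMIs), did not differ from either neighbour beyond counting error. Atf4 had the same order of the injured types, with NFOs above oligodendrocytes, whereas Atf3, Ddit3 and Atf5 had NFOs below them.

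The genes were next read within single barcodes. At least 3 of the 10 were found in 59 of 293 injured and 67 of 857 uninjured oligodendrocyte barcodes, and none in 47.4% and 51.2%. These counts were made without thinning, and 79 of the injured and 135 of the uninjured barcodes held 10000 UMIs or more. The part of depth in them was not tested. Only 3 oligodendrocyte barcodes of both libraries held 3 or more of the sparse targets Atf5, Trib3, Chac1, Sesn2 and Nupr1, a rule chosen after the values were seen. The first was an injured barcode of 14581 UMIs with Atf5 at 23, Ddit3 at 10, Trib3 at 4 and Sesn2 at 3 UMIs, 9 of the 10 members found, and 5 UMIs of Gdf15, a secreted stress cytokine. It had 1 Atf3 UMI, and its oligodendrocyte markers were low, with 7 UMIs each of Mag and Mog. Mitochondrial UMIs made up 12.3% of it, against a median of 4.47% in injured oligodendrocytes. It is therefore left out by the stricter filter at 10% mitochondrial UMIs, the alternative with the lowest Atf5 ratio (2.70). The second was the deepest injured barcode (58568 UMIs), with Nupr1 at 41, Ddit3 at 15, Atf5 at 14, Trib3 at 4 and Atf3 at 6 UMIs, also with 9 members. The third was an uninjured barcode of 9711 UMIs with 5 UMIs each of Nupr1 and Ddit3, 3 of Atf5, 7 members in all and no Atf3. The pair of injured barcodes held 8 of 9 Trib3, 43 of 54 Nupr1 and 37 of 116 Atf5 UMIs of all injured oligodendrocytes, but 7 of 258 Atf3 UMIs. Without the pair, Atf5 was still at 35.4 CPM and Ddit3 at 113 CPM, while Nupr1 was at 4.93 CPM and Trib3 at 0.449 CPM. The number of cells behind each of these barcodes was not tested.

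The 4 barcodes highest in Atf3 were others. They held 211, 283, 166 and 28 UMIs of the immediate early gene Fos and 12, 7, 4 and 6 UMIs of Cebpb. No UMI of Trib3, Chac1, Sesn2 or Nupr1 was in them. Without the pair of injured barcodes above, these genes were at only 0.449, 0.449, 4.04 and 4.93 CPM in injured oligodendrocytes. At such levels 4 barcodes hold few UMIs of these genes, so their absence there tells little. The 4 barcodes had 9, 9, 5 and 1 Ddit3 UMIs and 0, 1, 3 and 1 Atf5 UMIs. Their Atf4 UMIs were 2, 7, 7 and 5, and those of the pathway gene Ppp1r15a were 4, 0, 0 and 4.

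**Figure D4:**
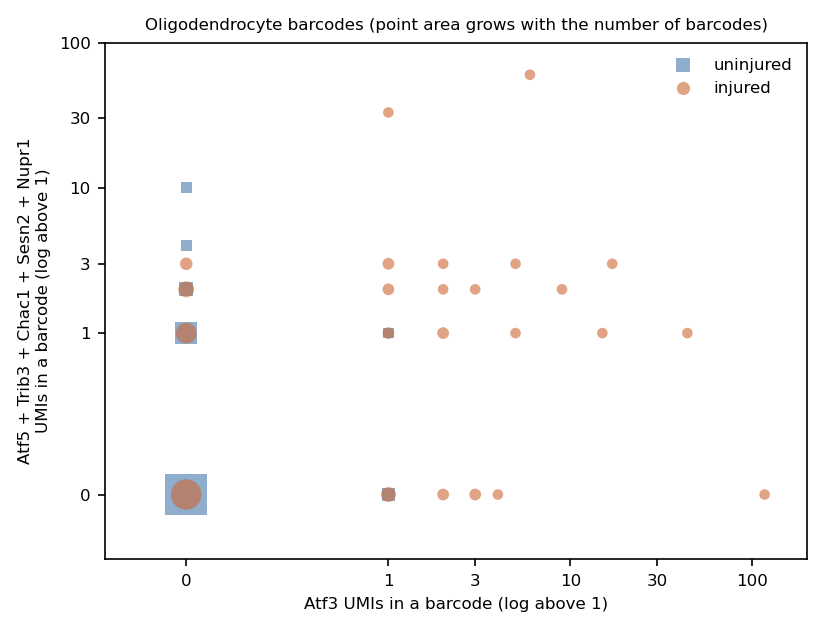
UMIs of Atf3 (x axis) against summed UMIs of Atf5, Trib3, Chac1, Sesn2 and Nupr1 (y axis) in each oligodendrocyte barcode, both axes linear to 1 and logarithmic above, with the point area growing with the number of barcodes at that place. The barcodes with 117 and 44 Atf3 UMIs lie at 0 and 1 on the y axis, and the 2 injured barcodes highest on the y axis have 1 and 6 Atf3 UMIs.

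The genes whose pattern was most like that of Atf3 were sought over 101 injured oligodendrocyte barcodes of at least 4000 UMIs, thinned to 4000, among 2480 genes found in at least 25% of them. All points share 1 library, Atf3 was found in 12 of the 101, and 1 barcode had 10 of its UMIs, so the correlations of log counts are descriptions. Among the leading 5 were Socs3 (Pearson r = 0.49), a feedback inhibitor of cytokine signalling, Junb (0.42) and Fos (0.38), which are immediate early factors, and Atp6v1b2 (0.40), a proton pump subunit. Without the barcode highest in Atf3, Socs3 was still first (0.40) and Junb was 11th at 0.29. Of the members, Atf4 had r = 0.29 (rank 15; 0.40 and rank 2 without that barcode) and Ddit3 r = 0.21 (rank 64; 0.07 without it).

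How often members were found with Atf3 differed between the settings used. The thinned settings differ in depth, in their barcodes and in the random draw, and these cannot be told apart here. At 4000 UMIs, Atf4 was in 9 of 12 injured oligodendrocyte barcodes with Atf3 (75%, 42.8 to 94.5) and in 20 of 89 without it (22.5%, 14.3 to 32.6). At 10000 UMIs the shares were 8 of 16 (50%, 24.7 to 75.3) and 30 of 63 (47.6%, 34.9 to 60.6), so the difference of 52.5 points became 2.38 points. For Ddit3 the shares at 4000 UMIs were 41.7% (15.2 to 72.3) and 34.8% (25.04 to 45.7), and at 10000 UMIs 62.5% and 61.9%. Atf5 was at 33.3% (9.92 to 65.1) and 15.7% (8.88 to 24.98) at 4000 UMIs, and at 37.5% and 17.5% at 10000 UMIs, with overlapping intervals. Ddit4 had 8.33% against 20.2% at 4000 UMIs and 12.5% (1.55 to 38.3) against 42.9% (30.5 to 55.95) at 10000 UMIs. Without thinning, over the same 101 barcodes (26 with Atf3 at a median of 24047 UMIs and 75 without it at 20093), Atf4 was in 88.5% (69.8 to 97.6) and 57.3% (45.4 to 68.7) and Atf5 in 69.2% (48.2 to 85.7) and 33.3% (22.9 to 45.2). Ddit3 was then in 80.8% and 72.0% and Ddit4 in 50% and 53.3%.

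Further genes of the pathway were read from 5 lists of 70 genes in all, of which 54 had at least 50 UMIs in oligodendrocytes. Of these, 5 were at least 2-fold higher and 4 at least 2-fold lower in the injured library, beside 5.98% and 4.06% of all genes, and the median ratio was 1.19 beside 1.03 over all genes. The higher genes were Cebpb (74.3 against 5.54 CPM; 13.4, 8.64 to 21.7), a C/EBP factor that pairs with ATF4 and is also induced in inflammation, Ppp1r15a (38.7 against 11.1 CPM; 3.49, 2.42 to 5.09), the stress-induced GADD34 subunit that returns eIF2 to its unphosphorylated state, and Jdp2 (2.72, 2.11 to 3.52), a bZIP repressor. Aldh1l2 (2.40, 1.99 to 2.91), a mitochondrial folate enzyme, and Eif2ak1 (2.03, 1.56 to 2.65), the heme-regulated eIF2 kinase, completed them. In barcodes without a macrophage marker UMI Eif2ak1 was at 1.43 (0.838 to 2.32), which ends its call. Cebpb was above 10 in all 9 alternatives, with 19.5 (10.7 to 37.1) in barcodes without a UMI of the 6 macrophage markers. Ppp1r15a ranged from 2.39 to 6.14.

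The genes at least 2-fold lower all belong to amino acid supply, and ATF4 is known to induce them. They were Slc6a9, a glycine transporter (69.1 against 228 CPM; 0.303, 0.255 to 0.359), Psat1 and Phgdh, enzymes of serine synthesis (0.340, 0.299 to 0.386, and 0.424, 0.381 to 0.472), and Slc38a2, an amino acid transporter (0.499, 0.454 to 0.549). Slc38a2 was at the limit and fell short of it in barcodes of 4000 UMIs or more (0.589, 0.531 to 0.653) and without barcodes poor in Malat1 (0.515, 0.468 to 0.567). The remaining 7 counted genes of that list of 20 were Aldh1l2, higher as given above, and 6 between 0.528 and 1.06, so that the median over the 11 was 0.648. The lower genes thus concern serine, glycine and neutral amino acid supply, while Asns, with its interval across 1, was not among them.

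The other lists had no gene past 2-fold or held the higher genes named above. All 13 genes of the tRNA synthetase list had at least 50 UMIs, none was past 2-fold, 11 had a ratio above 1, and the range was 0.859 (Xpot) to 1.99 (Tars, 1.41 to 2.80) with a median of 1.32. Of the 15 genes from other branches of the response to endoplasmic reticulum (ER) stress, 14 were counted, none was past 2-fold, and the range was 0.530 (Edem1) to 1.88 (Creld2), with a median of 1.53. The chaperone Hspa5 (BiP) was at 416 against 232 CPM, a ratio of 1.79 (1.64 to 1.96). Of the 12 kinase and eIF2 genes, 11 were counted, and Eif2ak3 (PERK), Eif2ak4 (GCN2) and the 5 eIF2B subunits lay between 0.662 and 1.34. Among the secreted targets, Gdf15 had 7 injured UMIs, 5 of them in the 1 barcode described above, and 0 uninjured UMIs, and Fgf21 and Stc2 had none. In NFOs 11 of the 70 genes were counted and 1 was at least 2-fold higher, beside 13.3% of all genes. None was at least 2-fold lower, beside 4.01% of all genes. The higher gene was the secreted ER factor Manf (276 against 117 CPM, ratio 2.36, 1.26 to 4.88). Manf was short of 2-fold in NFO barcodes without a macrophage marker UMI (1.49, 0.641 to 3.60), of 4000 UMIs or more (1.52, 0.761 to 3.45) and without those poor in Malat1 (1.99, 0.983 to 4.54).

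**Figure D5:**
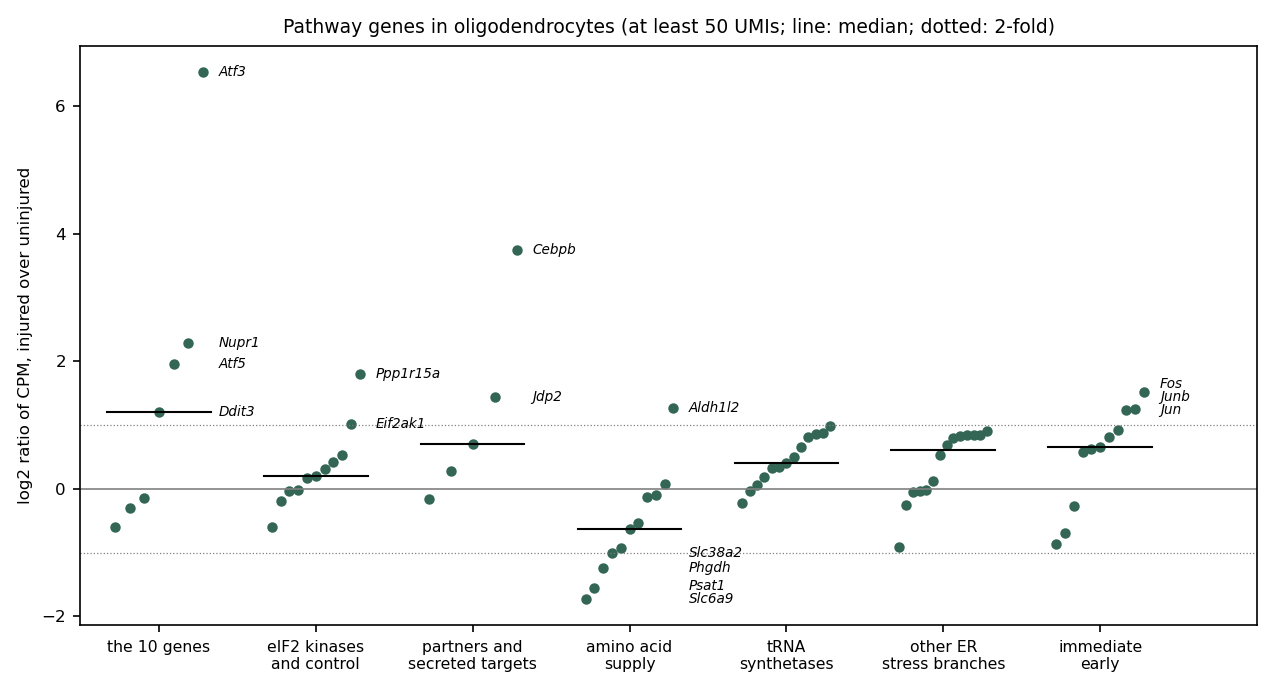
Ratio of CPM, injured over uninjured (log2 scale), of every listed gene with at least 50 UMIs in oligodendrocytes, by list, with the list's median as a line and 2-fold as dotted lines; names mark genes past 2-fold. The amino acid list has its median below 0 (ratio 0.648), all 13 tRNA synthetase points lie between the dotted lines, and Atf3 and Cebpb stand above all other points.

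Immediate early genes, with which Atf3 is often counted, were read from a separate list of 13 immediate early and dissociation genes. In oligodendrocytes 11 were counted and 3 were at least 2-fold higher, beside 5.98% of all genes. They were Fos (919 against 322 CPM, ratio 2.86, 2.67 to 3.06), Junb (2.39, 2.10 to 2.72) and Jun (2.36, 2.18 to 2.56). Fosb (0.830) and the heat shock genes Hspa1a (0.550) and Hspa1b (0.618) were below 1. In NFOs 7 were counted and 6 were at least 2-fold higher, beside 13.3% of all genes, from Fosb (2.26) to Ier2 (8.12, 2.69 to 40.1), while Atf3 had 7 UMIs there. In NFO barcodes without a macrophage marker UMI, Fosb was at 0.487 (0.110 to 1.75) and Jun at 1.43 (0.984 to 2.10), which ends both calls. The Atf3 ratio in oligodendrocytes was thus larger than that of any other listed gene, and Fos, present at 322 CPM in the uninjured library, was not near absence there as Atf3 was.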

How the data were processed

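Optic nerve cells were captured with 10x v2 chemistry, 1 library per condition. The authors used Cell Ranger 1.3 with bcl2fastq 2.17.1.14 and mm10 per the submitters' processing notes, kept barcodes with at most 20% mitochondrial UMIs, at least 200 genes and at most 150000 UMIs, subsampled all nerve cells to equal numbers per library, and typed them. They deposited NE, which is the natural log (Seurat 4.0.3) of 1 added to a gene's share of the barcode's UMIs scaled to 10000. No doublet caller was run here beside the authors' upper limit. A table of both libraries together was not used here.

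Here the log was undone, and in every barcode the smallest value above 0 was set to 1 UMI, which made all values whole within 0.01 in 100% of barcodes. UMIs were summed by type and library. Intervals are 95% intervals, exact Poisson for CPM, exact binomial for shares and exact conditional for ratios. A ratio was counted with at least 50 UMIs over both libraries. With 1 library per condition no p-values were computed. The barcode steps were tested on simulated data. Barcodes were thinned without replacement. Named genes are the 10 members, up to 6 list genes past 2-fold in each direction and type, and the 5 genes most like Atf3 (1 of which is not reported here), and any others were named after their values were seen. The members and lists were chosen with earlier results of these data known. Of the 31053 gene names, 30438 matched GENCODE vM21 (GRCm38), and Mars1 was matched as Mars. Coordinates count from 1. Promoter sequences are from RefSeq (GRCm38.p6, all 10 genes matched). Alternatives were a stricter filter (500 genes, 10% mitochondrial), choices of barcodes by depth, Malat1 and macrophage markers, mean CPM, median ratio scaling, mean NE, other minimums and folds, and barcodes left out. Python 3.11.15, numpy 2.4.6, scipy 1.17.1, pandas 2.3.3 and matplotlib 3.10.9 were used.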

Additional observations from a re-analysis of the deposited data

How the results depend on the processing

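Of 116 ratios of members, Cebpb and Ppp1r15a recomputed in oligodendrocytes, 95 lay within the counting interval of the reported ratio (or had the sign of mean NE on the same side), 19 lay outside it, and 2 of a gene past 2-fold turned, both for Nupr1 (0.437 in barcodes without a macrophage marker UMI and 0.877 without the 5 barcodes with most UMIs, an alternative chosen after seeing the data). Among genes under 50 UMIs, Trib3 also passed below 1 in 1 of 7 alternatives, at 0 in barcodes without a macrophage marker UMI, and Chac1 stayed above 1 in 4 of 8. The count of members at least 2-fold higher in injured oligodendrocytes was 4, and became 1 (Ddit3) in barcodes under 8000 UMIs, where fewer genes reach 50 UMIs, and 2 without macrophage marker UMIs, without the 5 leading barcodes of each gene, and at 200 UMIs. At 1.5-fold, 1 member (Ddit4) was lower. Of the other pathway genes in oligodendrocytes, 5 were higher, but 10 in barcodes of at least 4000 UMIs, 0 under 8000 UMIs, 2 by mean CPM, 3 at 200 UMIs, 18 at 1.5-fold and 2 at 3-fold. The 4 lower ones became 10 under 8000 UMIs, 10 by mean CPM, 8 at 1.5-fold and 1 at 3-fold. In NFOs the 1 higher gene became 2 under 8000 UMIs, 0 without macrophage marker UMIs or the 5 leading barcodes, 3 by mean CPM, 10 at 20 UMIs, 0 at 200 UMIs, 4 at 1.5-fold and 0 at 3-fold, and the count of lower genes, 0, became 1 in barcodes of at least 4000 UMIs, at 20 UMIs and at 1.5-fold. Where a minimum or fold did not set the change, the cause was not tested. Mean NE gives no ratio and so no count. Shares over all genes are given for the main setting only, so nothing is read from the changed counts about the listed genes. No paired analysis was possible because each condition has 1 library, which also leaves no replicate to leave out. Depth limits Trib3, Sesn2, Chac1 and all NFO and OPC values most.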
